A study of Mus musculus with 74 samples.

Results

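The transporters described here are all genes of a mouse gut RNA-seq count table whose symbol places them in the solute carrier families Slc2, Slc5, Slc6, Slc7, Slc15 or Slc16, which carry sugars, amino acids, peptides and small acids across cell membranes. The rule used names alone and no measured value, and it took 81 of the 24015 genes listed. Slc6 gave 20 genes, Slc7 16, Slc16 14, Slc2 and Slc5 13 each, and Slc15 5. RefSeq lists 79 of them as protein coding. The others are the pseudogene Slc2a4rg-ps and the non-coding RNA Slc6a19os, and Slc7a6os is named for lying opposite Slc7a6 and is not itself known as a transporter.

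The study compared gut epithelium of WT mouse embryos and of animals labelled as lacking Cdx2, a homeodomain transcription factor of the intestine, in 31 RNA-seq libraries of 15 groups. WT embryos were of the CD1 strain, untreated, and gave forestomach, hindstomach and small intestine at E12, E14 and E16 and small intestine at E18, with 2 libraries per group. Forestomach epithelium is squamous and hindstomach epithelium glandular, and the labels call the cells of the E12 and E14 small intestine midgut. All knockout animals and adults were of a mixed B6;129 background. Small intestine at E16 came from Cdx2f/f; Shh-Cre embryos with no treatment, labelled deleted at E10 (3 libraries), and from Cdx2f/f; Villin-Cre embryos after 5 mg tamoxifen by oral gavage, labelled deleted at E13 (2 libraries). Small intestine at E18 came from Cdx2f/f; Villin-Cre embryos treated in the same way, labelled deleted at E15 (2 libraries). Adult villi of the ileum came from Cdx2f/f; Villin-Cre mice injected with 1 mg tamoxifen on 5 days and from Cdx2f/f mice without Cre injected with oil (2 libraries each). Shh-Cre acts in the early gut endoderm and Villin-Cre in intestinal epithelium, so the groups labelled deleted differ in driver and in treatment as well as in time. Embryonic mutants and their WT controls also differ in strain, which cannot be told apart from genotype.

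Enterocytes take up glucose and galactose from the gut lumen with sodium through Slc5a1 (SGLT1), fructose through Slc2a5 (GLUT5), and pass sugars to the blood through Slc2a2 (GLUT2). Peptides enter with protons through Slc15a1 (PEPT1), neutral amino acids with sodium through Slc6a19 (B0AT1), proline through Slc6a20a and cystine and basic amino acids through Slc7a9, while Slc7a7, Slc7a8 and Slc16a10 work at the opposite, blood-facing membrane. Growing cells of most tissues instead rely on carriers such as the glucose transporters Slc2a1 and Slc2a3, the large neutral amino acid exchanger Slc7a5 and the lactate carriers Slc16a1 and Slc16a3.

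The promoters of Slc5a4a and Slc5a4b, relatives of Slc5a1 that neighbour each other on chromosome 10, and of Slc5a1 itself are shown because the first pair had the lowest fold changes of all absorptive sugar carriers in the libraries labelled deleted at E15 and in the adult, while Slc5a1 gave the most counts of any member at E18. Each window is the RefSeq sequence of build GRCm38.p6, from 250 bases before to 50 after the gene's start, read 5′ to 3′ on the gene's strand. Capitals mark matches, on either strand, to 6 strings of letters: TTTATG and TTTATT for CDX factors, GTTAAT for HNF1, CAAAGT for HNF4, AGATAA for GATA factors and TATAAA for the TATA box, whose reverse complement differs from both CDX strings in its last letter alone. The Slc5a4a window lies at chr10:76147201-76147500 on the + strand, the Slc5a4b window at chr10:76110969-76111268 on the - strand and the Slc5a1 window at chr5:33103969-33104268 on the + strand.
Slc5a4a: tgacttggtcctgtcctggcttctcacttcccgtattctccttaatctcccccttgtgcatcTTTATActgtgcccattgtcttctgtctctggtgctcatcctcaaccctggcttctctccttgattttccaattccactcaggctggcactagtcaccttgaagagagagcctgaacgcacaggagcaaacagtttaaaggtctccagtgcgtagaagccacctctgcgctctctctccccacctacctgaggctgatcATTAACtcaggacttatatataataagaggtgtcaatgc
Slc5a4b: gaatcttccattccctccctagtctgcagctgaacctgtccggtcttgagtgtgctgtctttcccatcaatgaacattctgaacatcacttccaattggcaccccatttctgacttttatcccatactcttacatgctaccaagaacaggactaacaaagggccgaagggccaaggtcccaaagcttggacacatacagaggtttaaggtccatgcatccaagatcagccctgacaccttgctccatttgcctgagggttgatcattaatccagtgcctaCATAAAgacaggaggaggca
Slc5a1: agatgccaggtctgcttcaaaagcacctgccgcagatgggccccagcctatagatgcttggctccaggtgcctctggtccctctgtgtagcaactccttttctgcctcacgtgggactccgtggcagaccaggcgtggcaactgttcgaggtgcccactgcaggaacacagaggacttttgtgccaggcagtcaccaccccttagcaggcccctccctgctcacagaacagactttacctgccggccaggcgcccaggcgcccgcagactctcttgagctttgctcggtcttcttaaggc

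In the Slc5a4a window, TATAAA was found on the other strand at window bases 63 to 68 and GTTAAT on the other strand at bases 262 to 267. The Slc5a4b window held TTTATG on the other strand at bases 281 to 286, and the Slc5a1 window held none of the 6 strings. The longest run the pair shared was tgatcattaa, 10 bases that begin 7 bases after the start of Slc5a4a and 10 after that of Slc5a4b. Of the 81 members, 56 had at least 1 window in the RefSeq table, 76 windows in all. Among the 14 absorptive carriers of sugars, amino acids and peptides, 13 had windows (18 in all), and GTTAAT lay in 22.2% of them (1 window each of Slc5a4a, Slc6a20a, Slc7a7 and Slc16a10), against 7.1% of all 32851 windows of this length. TTTATG or TTTATT lay in 16.7% of the 18 windows and 27.6% of all windows, CAAAGT in 16.7% and 14.4%, AGATAA in 16.7% and 11.2%, and TATAAA in 5.56% and 13.6%. These are matches of letters in a short window, with no measure of binding.

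Total counts ran from 5970227 to 62463167 per library, with a median of 21910062. Levels are given as CPM, counts scaled to a common depth and corrected for library composition, so they compare libraries for the same gene but not genes with each other. A library with 3 counts or fewer of a gene was treated as at the floor, which covers counting error only. Replicates of WT E18, of the libraries labelled deleted at E13 and of those labelled deleted at E15 differed least (chi-square per degree of freedom against sampling noise 1.526, 2.476 and 5.016), and those labelled deleted at E10 differed most, up to 131.768. Nothing in the labels says that replicates are separate animals, so p-values measure the spread between these libraries, which may be technical. Cdx2 itself went against some labels. Its level was 196 and 218 CPM in WT E16 and 17.4, 14.5 and 27.5 CPM under the label E10, but 213 and 217 CPM under the label E13. At E18 it was 199.9 and 206 CPM in WT and 388 and 371 CPM in the libraries labelled deleted at E15. In adults it was 242 and 248 CPM in WT and 472 and 462 CPM in the libraries labelled knockout. Counts over a floxed gene can include reads outside the deleted part, and the deleted exon cannot be told apart here. Of the 81 members, 75 passed the filter on low counts over the 27 embryonic libraries and 55 over the 4 adult ones, and Slc7a12 was at or under the floor in all 31 libraries. A member was called higher or lower at an edgeR adjusted p under 0.05 together with a log2 fold change of 1 or more in size. Log2 fold changes are given ± the standard error of the fit, also where they stand in parentheses behind CPM values, with n = 2 libraries per group, or 3 with the label E10, and every one printed passed the test unless it is said not to.

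Together, the 14 absorptive carriers took 0.00955% and 0.0105% of the counts at E12, 0.0197% and 0.0231% at E14, 0.143% and 0.136% at E16 and 1.02% and 1% at E18. The adult WT ileum, at 1.09% and 0.901%, lay on both sides of the E18 level, although adult libraries were made with another kit. The 9 growth and housekeeping carriers were at 0.0786% and 0.0867% at E12, 0.07% and 0.0758% at E16 and 0.155% and 0.156% at E18. Slc6a8 alone went from 18.5 and 10.1 CPM at E12 to 1486 and 1509 CPM at E18, while Slc2a1, Slc2a3, Slc7a5 and Slc7a11 had both E18 libraries below all those of E12 and E14. In the forestomach and hindstomach the absorptive share was at most 0.0144% in every library. Libraries labelled deleted at E15 held 0.256% and 0.257% and adult libraries labelled knockout 0.436% and 0.443%, both below their WT groups with no overlap. Those labelled deleted at E10 held 0.00654%, 0.00546% and 0.00551% and those labelled deleted at E13 0.248% and 0.244%, on either side of WT E16. In bulk samples, fewer cells of a type and less RNA per cell cannot be told apart.

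**Figure D1:**
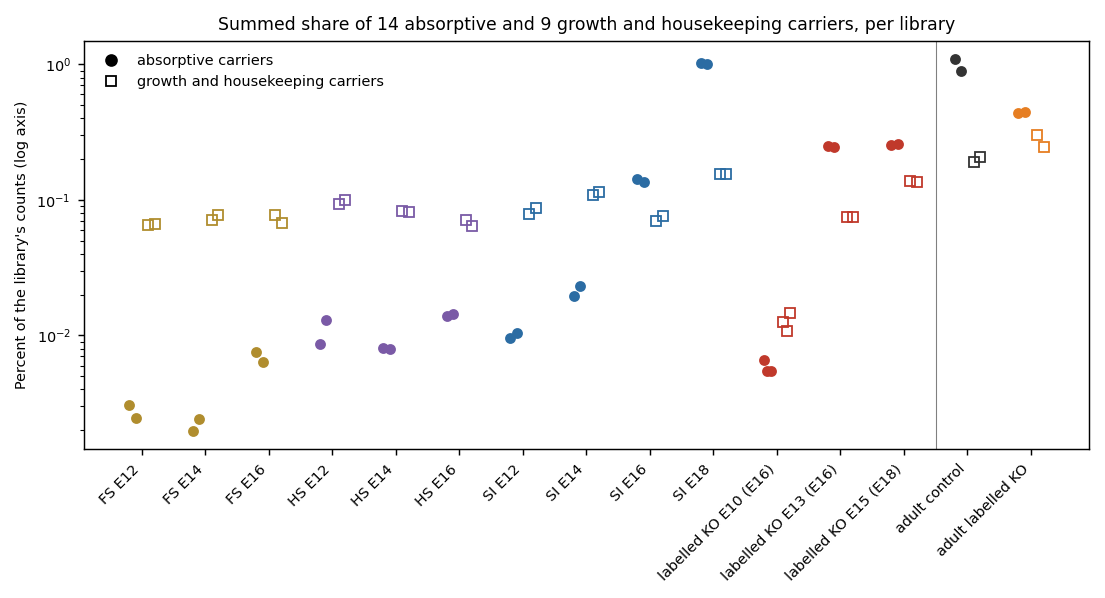
Share of each library's counts, in percent on a log axis, taken by the 14 absorptive carriers (filled circles) and the 9 growth and housekeeping carriers (open squares) in the 15 groups; each symbol is 1 library. The absorptive share at WT E18 was 1.02% and 1%, against 0.256% and 0.257% in the libraries labelled deleted at E15.

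Between E12 and E14, when the intestinal epithelium is still without villi, 75 members were tested and 12 were called higher and 4 lower, against 11.3% and 4.89% of all 17239 genes. Slc7a9, the cystine carrier, was at 0 and 1.08 CPM at E12 and 11.1 and 10.7 CPM at E14, both E14 libraries lying above both E12 ones, a log2 fold change of 4.29 ± 0.72 (edgeR, adjusted p = 0.000347). Slc5a1 was at 0 and 2.55 CPM and 22.9 and 27.5 CPM, also with no overlap, and rose by 4.27 ± 0.80 (edgeR, adjusted p = 0.000631). The peptide carrier Slc15a2 was at 0 counts in both E12 libraries and at 8.45 and 10.6 CPM at E14, at least 93.7-fold higher. Slc16a10, Slc7a8, Slc7a1, Slc16a3 and the biotin and pantothenate carrier Slc5a6 also rose, by 1.29 to 2.00 on the log2 scale, the call of Slc7a8 being lost without WT E12 replicate 2 or WT E14 replicate 2, at 1.33 to 1.61. Slc2a2 fell from 22.5 and 41.6 CPM to 7.89 and 9.19 CPM, a change of -1.91 ± 0.46 on the log2 scale (edgeR adjusted p = 0.00446). The iodide carrier Slc5a5 fell as well, at -2.93 ± 0.62, a call that was lost without WT E12 replicate 1, where the change was -1.48. Without WT E12 replicate 2, 32 members were called in all, and a fit of these groups alone called 0 of 55 members (14 at an unadjusted p under 0.05), while DESeq2 on the same groups called 12.

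From E14 to E16, as villi form, 30 were called higher and 5 lower of the 75 members, against 13.7% and 11.9% of all genes. All 7 absorptive sugar carriers and 6 of the 7 absorptive amino acid and peptide carriers were among those called higher. The median log2 fold change was 0.56 over the members and -0.08 over all genes.

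Among the sugar carriers, Slc5a1 was at 22.9 and 27.5 CPM at E14 and 422 and 424 CPM at E16. Both E16 libraries lay far above both E14 ones, with a log2 fold change of 4.07 ± 0.71 (edgeR, adjusted p = 0.000152). Slc2a2 moved from 7.89 and 9.19 CPM to 17.5 and 23 CPM and Slc2a5 from 2.71 and 2.37 CPM to 10.4 and 8.41 CPM, with log2 fold changes of 1.25 and 1.87. Slc2a7, a sugar carrier related to Slc2a5, was at 0 counts in both E14 libraries and at 3.82 and 2.89 CPM at E16, at least 28.4-fold higher. Slc5a9, a carrier of mannose and fructose, rose by 1.59 and Slc5a4b by 3.72, both from levels of at most 1.42 CPM. Slc5a4a was at 0 counts in both E14 libraries and 1 of the E16 libraries, and its call rests on the other, at 0.71 CPM. The calls of Slc2a2, Slc2a5 and Slc5a9 were each lost without any 1 of the 4 libraries, at 1.04 to 1.44, 1.71 to 2.02 and 1.49 to 1.68, and that of Slc5a4b without WT E14 replicate 1, at 3.43. DESeq2 did not call Slc2a2, Slc2a5, Slc5a4a or Slc5a4b.

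Amino acid carriers rose in the same step. Slc6a19 had 1 count at E14, in 1 of the libraries, and stood at 105 and 98.1 CPM at E16, a ratio of 10054 (95% counting interval 1803 to 397224). Slc6a20a was at 1.56 and 0.986 CPM and then 52.3 and 45.5 CPM, a log2 fold change of 5.19 ± 0.66 (edgeR, adjusted p = 6.66e-06). Slc7a9 reached 195 and 174 CPM, with a log2 fold change of 4.08 ± 0.58 (edgeR, adjusted p = 2.95e-05). Slc7a7, which exports basic amino acids to the blood, was at 7.91 and 8.36 CPM and then 87.9 and 77 CPM (3.34 on the log2 scale), and Slc7a8 at 89.7 and 97.8 CPM and then 371 and 341 CPM (1.93). Slc15a1 rose by 3.71 ± 0.63 but was still at 5.54 and 3.66 CPM. In each of these genes both E16 libraries lay above both E14 libraries. Slc16a10, the aromatic amino acid carrier, was not called, at 21.6 and 27.2 CPM and 35.5 and 36.2 CPM.

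From E16 to E18, 29 were called higher and 19 lower of the 75 members, against 20.1% and 22.1% of all genes. All 7 absorptive sugar carriers were called higher, and 6 of the 7 absorptive amino acid and peptide carriers. E16 cells were sorted for the epithelial surface protein Epcam after trypsin, and E18 cells were released from villi with EDTA, so stage and preparation cannot be told apart. Markers of muscle and mesenchyme took 0.133% and 0.143% of counts at E16 (6 of 6 markers detected) and 5e-05% and 3e-05% at E18 (4 of 6 detected), and enterocyte markers 1.2% and 1.16% and 3.94% and 3.96%; their part in the result was not tested.

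Slc5a1 reached 6861 and 6847 CPM at E18, a log2 fold change over E16 of 4.02 ± 0.70 (edgeR, adjusted p = 7.7e-05), and made up 35.1% of all member counts in each of the E18 libraries. Slc2a2 was at 1067 and 1069 CPM and Slc2a5 at 673 and 658 CPM, with log2 fold changes of 5.72 ± 0.53 and 6.15 ± 0.79. Slc5a4a and Slc5a4b were at 316 and 291 CPM and 459 and 431 CPM, up by 9.76 and 6.84 on the log2 scale. Near-identical genes can share reads, so the split of counts within this pair is uncertain, as it is between Slc6a20a and Slc6a20b. Slc2a7 reached 137 and 142 CPM and Slc5a9 103 and 98.4 CPM. In all 7 genes both E18 libraries lay above both E16 libraries.

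The peptide carrier Slc15a1 was at 5.54 and 3.66 CPM at E16 and 776 and 762 CPM at E18, with no overlap and a log2 fold change of 7.38 ± 0.56 (edgeR, adjusted p = 2.44e-09). Slc16a10 was at 597 and 628 CPM at E18 (4.09 ± 0.36), Slc6a19 at 1425 and 1371 CPM (3.78 ± 0.44) and Slc6a20a at 414 and 419 CPM (3.09 ± 0.57). Slc7a7 rose by 2.73. The change of Slc7a9, from 195 and 174 CPM to 437 and 439.8 CPM, was smaller at 1.25 and was lost without any 1 of the 4 libraries, at 1.17 to 1.34. Slc7a8 was not called, at 371 and 341 CPM and 772 and 791 CPM. Within this group, Slc15a1 and Slc16a10 had the largest log2 fold changes of this step and Slc7a9 the smallest of those called.

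**Figure D2:**
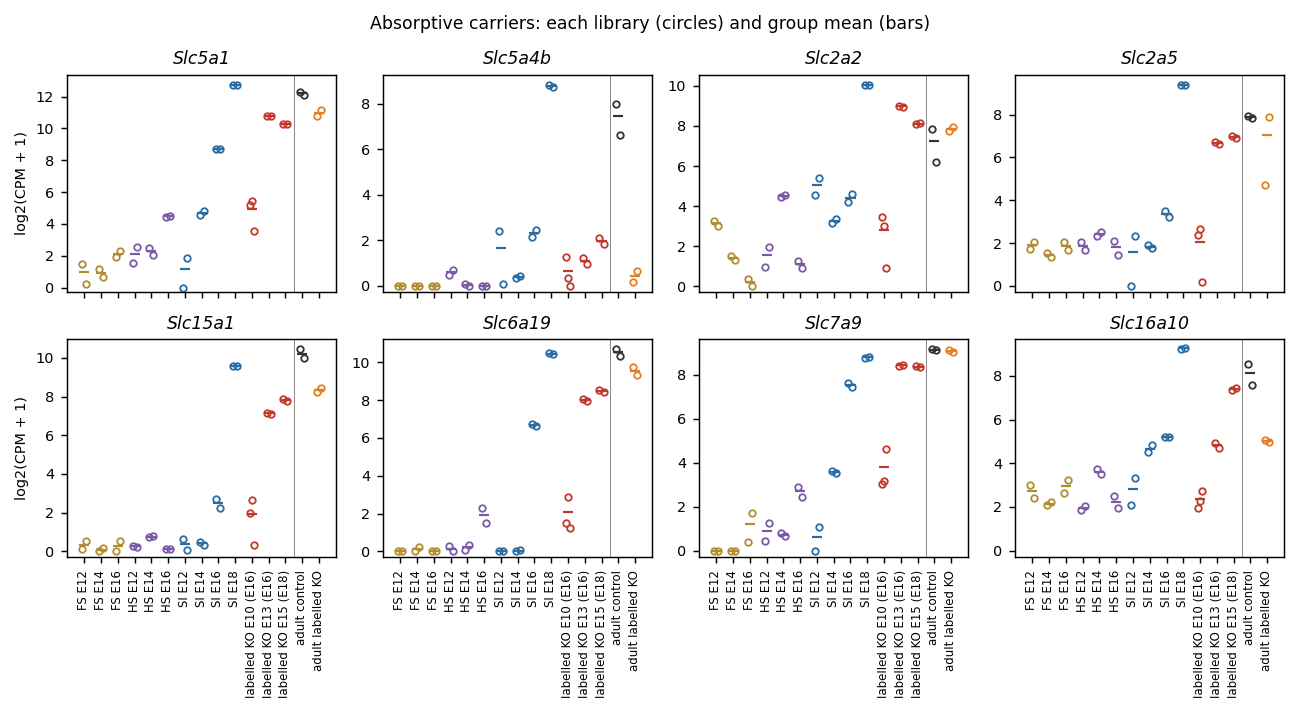
Levels as log2(CPM + 1) of 8 absorptive carriers in all 15 groups, forestomach (FS), hindstomach (HS), small intestine (SI), libraries labelled deleted and adult ileum. Each circle is 1 library and each bar a group mean, and the line sets off the adult libraries, which were scaled apart; Slc5a1 stood at 422 and 424 CPM in WT E16 and at 6861 and 6847 CPM in WT E18.

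The growth and housekeeping carriers took separate courses. Slc2a3, the high-affinity glucose carrier of early embryonic cells, was at 205 and 248 CPM at E12, 187 and 207 at E14, 9.41 and 12.7 at E16 and 11.2 and 9.5 at E18. The fall lay between E14 and E16, with a log2 fold change of -4.16 ± 0.25 (edgeR, adjusted p = 4.73e-10), and no E16 or E18 library reached an E12 or E14 one. Slc2a1, the basal glucose carrier, was at 207 and 201 CPM at E14, 176 and 183 at E16 and 18.4 and 16.2 at E18, and its fall between E16 and E18 was -3.38 ± 0.18 on the log2 scale. Slc7a5 fell over the same step, from 57.6 and 57.6 CPM to 9.04 and 10.8 CPM (-2.53 ± 0.28), and so did the cystine and glutamate exchanger Slc7a11, from 3.12 and 2.73 CPM to 0.657 and 0.384 CPM (-2.52 ± 0.65).

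Others of this group rose late. Slc6a8, the creatine carrier, was at 18.7 and 18.7 CPM at E14, 27.8 and 17.8 at E16 and 1486 and 1509 at E18, a log2 fold change of 6.04 ± 0.38 (edgeR, adjusted p = 1.88e-10) in the last step. Slc6a6, the taurine carrier, was at 156 and 164 CPM and then 382 and 393 CPM (1.28 ± 0.20), and Slc7a1, a carrier of basic amino acids, at 21.1 and 17.3 CPM and then 61.2 and 58.6 CPM (1.64 ± 0.18). The lactate carrier Slc16a3 fell between E14 and E16, from 149 and 159 CPM to 27 and 24.5 CPM (-2.58 ± 0.26), and rose again to 102 and 100.1 CPM (1.98 ± 0.25). Slc16a1, the other lactate carrier, was called in none of the 3 steps, at 127 and 114 CPM at E12 and 151 and 158 CPM at E18.

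**Figure D3:**
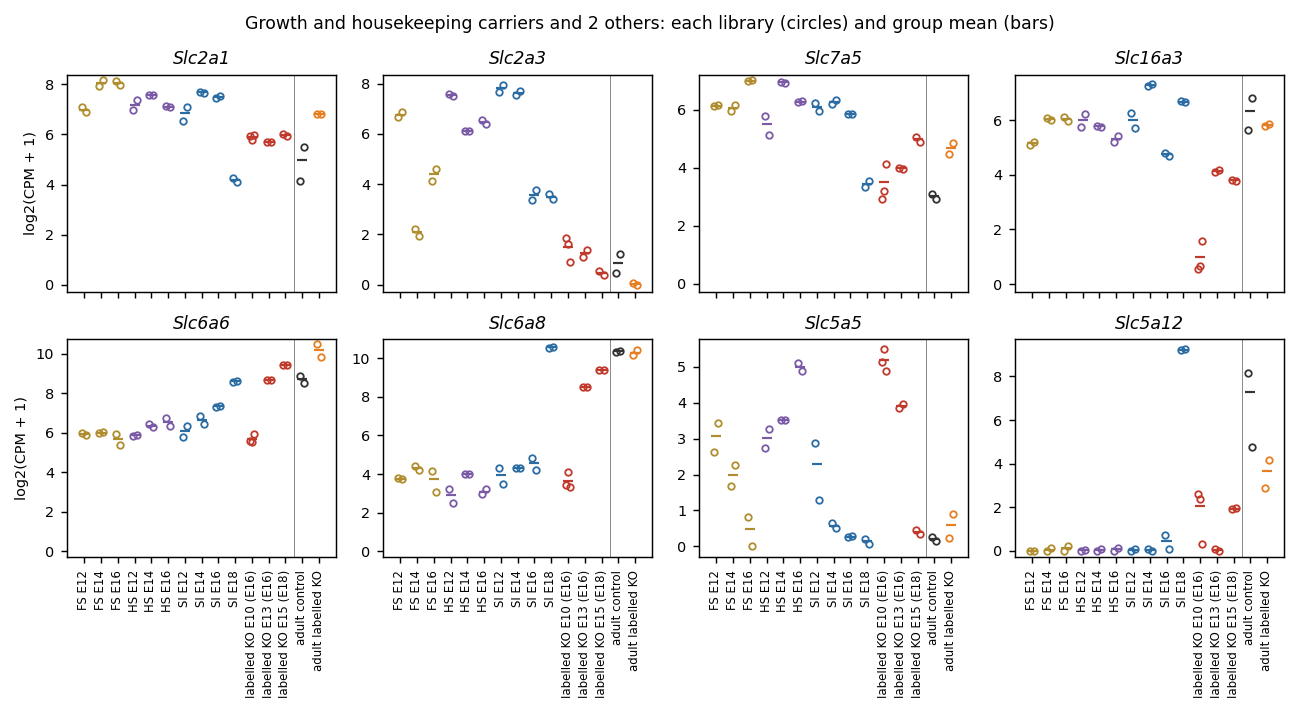
Levels as log2(CPM + 1) of 6 growth and housekeeping carriers and of Slc5a5 and Slc5a12 in all 15 groups, with circles for libraries, bars for group means and a line before the adult libraries. Slc2a3 lay at 205 and 248 CPM in WT E12 small intestine and at 11.2 and 9.5 CPM in WT E18, while Slc6a8 went from 18.5 and 10.1 CPM to 1486 and 1509 CPM.

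Among the remaining members, Slc5a12, a sodium-coupled carrier of lactate and other monocarboxylates, was at 0.654 and 0.0546 CPM at E16 and 601 and 605 CPM at E18, with a log2 fold change of 10.67 ± 0.77 (edgeR, adjusted p = 2.05e-09). The serotonin carrier Slc6a4 rose earlier, from 5.1 and 4.61 CPM at E14 to 74.6 and 66.8 CPM at E16 (3.86 ± 0.63). Slc5a6 rose in both steps, by 1.37 and 1.17. Slc15a2 fell in the second, with a change of -2.10, the reverse of the peptide carrier Slc15a1. The glucose carriers Slc2a12 and Slc2a4, the latter known from muscle and fat, also fell in the second step. Slc2a12 was at 0.654 and 0.491 CPM at E16 and 0 counts at E18 (at least 2.32-fold lower), and Slc2a4 at 4.13 and 1.69 CPM and 0 and 0.11 CPM. Slc6a14, a carrier of neutral and basic amino acids, was at 1.91 and 1.15 CPM at E16 and 0 counts at E18.

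Some absorptive carriers were lower in the stomach than in the intestine already at E14. In E14 forestomach against small intestine, 7 were called higher and 12 lower of the 75 members, against 4.66% and 7.29% of all genes. In E14 hindstomach, 5 were called higher and 7 lower, against 3.49% and 3.35%. Slc7a8 was at 89.7 and 97.8 CPM in small intestine, 1.16 and 1.19 CPM in forestomach and 9.84 and 10.4 CPM in hindstomach. Each organ's libraries lay apart from those of the others, with log2 fold changes of -6.31 ± 0.66 (edgeR, adjusted p = 7.52e-07) in forestomach and -3.21 ± 0.53 (edgeR, adjusted p = 0.000365) in hindstomach. Slc5a1 was at 1.24 and 0.578 CPM and 4.62 and 3.2 CPM in the stomach regions, log2 fold changes of -4.81 and -2.68, the second call being lost without any 1 of its 4 libraries, at -2.97 to -2.44. Slc7a9 was at 0 counts in both forestomach libraries (at least 85-fold lower). Slc5a9, an absorptive sugar carrier, was higher in both stomach regions, at 4.92 and 7.37 CPM in forestomach and 5.72 and 4.96 CPM in hindstomach against 1.24 and 1.42 CPM in small intestine (2.22 ± 0.59 and 2.01 ± 0.59), calls that were lost without 3 and 4 of their 4 libraries, at 1.89 to 2.31 and 1.91 to 2.11. Slc2a2, at 21.1 and 22.4 CPM in hindstomach and 7.89 and 9.19 CPM in small intestine, was not called there, and was called lower in forestomach (-2.36 ± 0.55), a call lost without forestomach replicate 2, at -2.20. Slc2a3 was also lower in forestomach, at 3.64 and 2.82 CPM (-5.94 ± 0.28), and in hindstomach, at 68.8 and 67.4 CPM (-1.53 ± 0.22). Slc2a12 was higher in forestomach, at 40 and 34.8 CPM, than in small intestine, at 0.884 and 0.158 CPM (6.06 ± 0.78), and Slc5a5 higher in hindstomach, at 10.5 and 10.4 CPM (4.36 ± 0.65). For hindstomach, leaving out any 1 of the 4 libraries left 5 to 7 members called, and a fit of these groups alone called 20.

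At E16 more members differed, as did a larger share of all genes. In forestomach against small intestine, 13 were called higher and 24 lower of the 75 members, against 18.6% and 16.4% of all genes, and in hindstomach 15 were called higher and 26 lower, against 17.5% and 8.1%. All 7 absorptive amino acid and peptide carriers were lower in both stomach regions, as were 4 of the 7 absorptive sugar carriers in forestomach and 5 of 7 in hindstomach. The forestomach call of Slc5a4b, at 0 counts there, was lost without any of 3 of the 4 libraries. Slc6a19 was at 0 counts in both forestomach libraries, at least 219-fold lower than in small intestine, and at 3.86 and 1.87 CPM in hindstomach, a log2 fold change of -5.15 ± 0.50 (edgeR, adjusted p = 7.32e-07). Slc5a1 was at 2.78 and 3.83 CPM in forestomach and 20.6 and 22 CPM in hindstomach, with log2 fold changes of -7.00 ± 0.90 and -4.31 ± 0.72. Slc7a8 was at 38.3 and 22.2 CPM and 58.4 and 63.6 CPM (-3.56 and -2.55).

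Some carriers were higher in the E16 stomach than in the intestine. Slc5a5, the iodide carrier known from thyroid and gastric epithelium, was at 33.6 and 28.3 CPM in hindstomach and 0.201 and 0.218 CPM in small intestine, a log2 fold change of 7.17 ± 0.78 (edgeR, adjusted p = 7.2e-07). Slc2a3 was higher in hindstomach, at 92.7 and 82.3 CPM (2.99 ± 0.24), though it had been lower there at E14. In forestomach Slc2a4, the insulin-regulated glucose carrier of muscle and fat, was at 102 and 148 CPM against 4.13 and 1.69 CPM in small intestine (5.42 ± 0.85). Slc16a9, a carrier of carnitine, was at 4.01 and 7.35 CPM in forestomach and 1.86 and 1.91 CPM in hindstomach, with 2 counts in the small intestine libraries, and the hindstomach call was lost without any 1 of its 4 libraries, at 4.05 to 8.53. Slc7a5 and Slc16a3 were higher in forestomach (1.14 and 1.32), and Slc7a11 in both regions (1.76 and 2.70), its forestomach call being lost without 3 of the 4 libraries, at 1.64 to 1.86. The E16 cells had been sorted for Epcam, and markers of other cell types were measured in the libraries. Muscle and mesenchyme markers (6 of 6 detected) took 1.8% and 2.16% of counts in forestomach and 0.748% and 0.783% in hindstomach. Epithelial markers (4 of 4, namely Cdh1, Epcam, Krt8 and Krt18) took 0.0826% and 0.0739% in forestomach and 0.702% and 0.677% in small intestine. Krt5, Krt13, Krt14 and Trp63, also among the markers, went the other way. Their raw counts were 11240 and 8861, 4120 and 3817, 3471 and 2929, and 501 and 566 in forestomach. In small intestine they were 10 and 0, 0 and 2, 1 and 0, and 0 and 0. Enteric neuron markers (4 of 4) took 0.0786% and 0.0777% in hindstomach and 0.00593% and 0.00693% in small intestine, beside Slc5a7, a choline carrier of neurons, at 27.8 and 22.3 CPM and 1.01 and 3.6 CPM, which did not pass the test, and Slc6a15, a brain amino acid carrier, at 25 and 22.2 CPM and 0.805 and 0.873 CPM. Their part in the results was not tested.

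From E14 to E16 the forestomach had 17 members called higher and 6 lower of 75, against 20.8% and 16.9% of all genes. In hindstomach 18 were called higher and 6 lower, against 16.5% and 5.5%. In both regions Slc7a7, Slc7a8, Slc7a9 and Slc7a11 rose and Slc15a2 fell, the forestomach call of Slc7a9, from 0 counts to 0.309 and 2.3 CPM, being lost without 3 of the 4 libraries, at 5.96 to 7.99. In hindstomach Slc5a1 went from 4.62 and 3.2 CPM to 20.6 and 22 CPM and Slc7a9 from 0.741 and 0.564 CPM to 6.43 and 4.48 CPM, both E16 libraries lying above both E14 ones, with log2 fold changes of 2.44 ± 0.72 and 3.05 ± 0.75. Slc2a2 went the other way, from 21.1 and 22.4 CPM to 1.42 and 0.87 CPM (-4.25 ± 0.59, edgeR adjusted p = 2e-05), and Slc5a9 from 5.72 and 4.96 CPM to 0.444 and 0 CPM (-4.57 ± 0.75). The count in hindstomach was 13 without WT E14 hindstomach replicate 1 and 14 without replicate 2, and the call of Slc5a1 was lost without either, at 2.20 to 2.73. In forestomach against hindstomach at E16, 3 were called higher and 8 lower of 75, against 6.27% and 13.8% of all genes. Slc5a5 was at 0.772 and 0 CPM in forestomach, below both hindstomach libraries (-6.31 ± 0.80, edgeR adjusted p = 6.45e-06), and Slc5a9 was higher in forestomach, at 3.4 and 6.74 CPM (4.49 ± 0.78). With DESeq2's size factors in place of edgeR's scaling the split was 5 higher and 7 lower, and a fit of these groups alone called 18 members.

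Both carrier groups were low in the libraries labelled deleted at E10, where the growth carriers took 0.0125%, 0.0108% and 0.0146% of counts, against 0.07% and 0.0758% in WT E16. Against WT E16 small intestine, 8 were called higher and 34 lower of the 75 members, against 23.9% and 27.6% of all genes, and the median log2 fold change was -1.65 over the members and -0.10 over all genes. Called lower were 4 of 7 absorptive sugar carriers, 6 of 7 absorptive amino acid and peptide carriers and 6 of 9 growth and housekeeping carriers. Gastric markers (5 of 5 detected) took 0.272%, 0.555% and 0.247%, against 0.00054% and 0.00049% in WT E16 (3 or 4 of 5 detected), and mesenchymal markers 0.00708%, 0.00778% and 0.0106%, against 0.133% and 0.143%. Their part in the results was not tested.

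Of the sugar carriers, Slc5a1 was at 35.5, 42.6 and 10.7 CPM under the label E10 and 422 and 424 CPM in WT E16. All 3 lay far below both WT libraries, replicate 3 lowest, with a log2 fold change of -3.82 ± 0.60 (edgeR, adjusted p = 1.68e-05). Slc2a2 was at 10.1, 7.05 and 0.865 CPM against 17.5 and 23 CPM (-1.66 ± 0.45; not called in a fit of these groups alone), and Slc2a7 at 0.468, 0.336 and 0.865 CPM against 3.82 and 2.89 CPM (-2.66 ± 0.39). Slc5a4b was called lower at -2.56 but lost the call with the replicate number as a block, with DESeq2 and without any of 4 libraries, at -2.74 to -2.10. Slc2a5, Slc5a4a and Slc5a9 were not called. Among the amino acid carriers, Slc7a8 was at 0.468, 1.01 and 7.91 CPM against 371 and 341 CPM in WT, a log2 fold change of -7.08 ± 0.56 (edgeR, adjusted p = 1.79e-09). Slc6a20a was at 0.801, 0.419 and 1.36 CPM against 52.3 and 45.5 CPM (-5.91 ± 0.66), Slc6a19 at 1.87, 6.29 and 1.36 CPM against 105 and 98.1 CPM (-4.97 ± 0.44) and Slc7a9 at 7.21, 7.97 and 23.2 CPM against 195 and 174 CPM (-3.90 ± 0.51). Slc15a1 was not called, at 3.01, 5.37 and 0.247 CPM against an E16 level that was itself low.

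Most of the growth carriers were lower too, while Slc6a8 and Slc7a11 were not called. Slc16a3 was at 0.468, 0.587 and 1.98 CPM against 27 and 24.5 CPM in WT E16 (-4.85 ± 0.31, edgeR adjusted p = 7.3e-11). Slc16a1 was at 24.3, 27.6 and 26.9 CPM against 167 and 210.5 CPM (-2.85 ± 0.14), Slc7a5 at 6.55, 8.14 and 16.3 CPM against 57.6 and 57.6 CPM (-2.52 ± 0.25) and Slc2a1 at 61, 53.5 and 62 CPM against 176 and 183 CPM (-1.61 ± 0.15). In each of these genes all 3 libraries lay below both WT ones. Slc7a1 was the growth carrier called higher, at 38.4, 42.7 and 50.5 CPM against 21.1 and 17.3 CPM (1.19 ± 0.17). The largest rise among well-expressed members was that of Slc5a5, at 33.9, 44 and 28.7 CPM against 0.201 and 0.218 CPM, a log2 fold change of 7.37 ± 0.77 (edgeR, adjusted p = 7.57e-08), a level that overlaps that of E16 hindstomach. Slc15a2 was at 20.6, 31.5 and 35.3 CPM against 11.7 and 12 CPM (1.29 ± 0.35). The creatine carrier Slc16a12 fell to 0.601, 0.252 and 1.24 CPM from 37.3 and 35.3 CPM (-5.80 ± 0.51).

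The libraries labelled deleted at E13 had many absorptive carriers above WT E16. Of the 75 members 24 were called higher and 18 lower, against 18.7% and 20.8% of all genes. Both this comparison and the one for E10 use the WT E16 libraries as control. Of the absorptive sugar carriers 5 of 7 were called higher and 0 lower; of the amino acid and peptide carriers 2 of 7 were higher and 1 lower. In these libraries, whose Cdx2 level lay among those of WT E16, enterocyte markers (6 of 6 detected) took 2.62% and 2.71% of counts, against 1.2% and 1.16% in WT E16. Mesenchymal markers took 0.0012% and 0.00123%, against 0.133% and 0.143%. All gastric markers were higher with the label E13, also allowing for the greater depth of these libraries. Gkn1 had 30930 and 27217 raw counts against 6 and 0 in WT E16, and Gkn2 21944 and 20105 against 1 and 12. Muc5ac had 15023 and 13481 against 0 and 0, Tff2 8259 and 7520 against 38 and 40, and Cldn18 1670 and 1566 against 54 and 29. The part of all these markers in the result was not tested.

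Slc15a1 was at 139 and 138 CPM in the libraries labelled deleted at E13 against 5.54 and 3.66 CPM in WT E16. Both lay above both WT libraries, with a log2 fold change of 4.91 ± 0.51 (edgeR, adjusted p = 1.65e-07), and below the WT E18 level of 776 and 762 CPM. Slc2a2 was at 517 and 487 CPM (4.63 ± 0.51, edgeR adjusted p = 3.06e-07) and Slc2a5 at 105 and 98.4 CPM (3.44 ± 0.71). Slc5a9 was at 33.6 and 32 CPM (3.04 ± 0.59) and Slc5a1 at 1739.7 and 1737 CPM (2.04 ± 0.65). Slc6a19 was at 261 and 246 CPM (1.32 ± 0.40). In all of these both labelled libraries lay above both WT E16 ones. Slc7a8 went the other way, at 115 and 115 CPM against 371 and 341 CPM (-1.63 ± 0.49), and Slc7a9, at 337 and 342 CPM, was not called. The call of Slc5a1 was lost without either WT library (2.04 in both), that of Slc6a19 without 3 of the 4 libraries (1.27 to 1.37) and that of Slc7a8 without either labelled library (-1.63 in both), and DESeq2 called none of these 3.

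Slc6a8 led the growth carriers, at 366 and 359 CPM against 27.8 and 17.8 CPM (3.99 ± 0.35, edgeR adjusted p = 1.46e-08), and Slc7a11 was at 36 and 35.9 CPM against 3.12 and 2.73 CPM (3.62 ± 0.59, edgeR adjusted p = 3.6e-05), the highest level of that gene in any group. Slc2a3 fell to 1.16 and 1.61 CPM (-3.00 ± 0.28), Slc7a5 to 15 and 14.4 CPM (-1.97 ± 0.27) and Slc2a1 to 50.8 and 50.9 CPM (-1.82 ± 0.17). Slc5a5 was higher, at 13.3 and 14.5 CPM (6.02 ± 0.76), and the serotonin carrier Slc6a4 lower, at 14.8 and 15.4 CPM (-2.23 ± 0.59). Slc16a9 was at 43.9 and 42.6 CPM, with 2 counts in the WT E16 libraries, and the amino acid carrier Slc7a15 at 85.5 and 82 CPM against 0.503 and 0.764 CPM (7.04 ± 0.57). Set directly against the libraries labelled deleted at E10, which share stage and strain but not driver or treatment, those labelled deleted at E13 had 38 members higher and 9 lower of 75, against 29.3% and 28.1% of all genes. All 7 absorptive amino acid and peptide carriers and 6 of 7 sugar carriers were higher there, with log2 fold changes of 6.29 ± 0.47 for Slc2a2 and 6.29 ± 0.45 for Slc6a19, while Slc15a2 was lower at -4.08 ± 0.42 and Slc5a5 at -1.35 ± 0.52, the last call being lost without 3 of the 5 libraries, at -1.41 to -1.19.

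In the libraries labelled deleted at E15 the absorptive carriers fell as a group against WT E18. Of 75 members 8 were called higher and 28 lower, against 7.79% and 9.7% of all genes. All 7 absorptive sugar carriers and 6 of the 7 absorptive amino acid and peptide carriers were called lower, and none higher. The median over all 75 members was -0.02 and over all genes 0.00. Enterocyte markers (6 of 6 detected) took 2.73% and 2.64% of counts, against 3.94% and 3.96% in WT E18. Ptprc, Tyrobp and Cd52, markers of immune cells, had 124 and 190, 26 and 28, and 19 and 16 raw counts in the labelled libraries. In WT E18 they had 2392 and 3657, 571 and 797, and 391 and 649. Mki67, Top2a and Ccnb1, of dividing cells, had 10190 and 15262, 3886 and 5607, and 1035 and 1388. Their WT E18 counts were 2363 and 3473, 960 and 1450, and 245 and 389. The part of all these markers in the result was not tested.

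The pair Slc5a4a and Slc5a4b, whose promoters are shown, changed most among the sugar carriers. Slc5a4a was at 1.96 and 1.76 CPM in the labelled libraries and 316 and 291 CPM in WT E18, and Slc5a4b at 3.31 and 2.56 CPM and 459 and 431 CPM. Both labelled libraries lay far below both WT ones, with log2 fold changes of -7.35 ± 0.76 (edgeR, adjusted p = 9.45e-06) and -7.25 ± 0.97 (edgeR, adjusted p = 4.1e-05). Slc5a1 was at 1219.9 and 1242 CPM against 6861 and 6847 CPM (-2.48 ± 0.66, edgeR adjusted p = 0.00695). Slc2a2 was at 269 and 284 CPM against 1067 and 1069 CPM (-1.95 ± 0.45), Slc2a5 at 129 and 118 CPM against 673 and 658 CPM (-2.43 ± 0.66) and Slc2a7 at 21.7 and 20.8 CPM against 137 and 142 CPM (-2.72 ± 0.35). The call of Slc5a1 was lost without either labelled library (-2.50 to -2.46), as was that of Slc2a5 (-2.49 to -2.38), and that of Slc5a9, at -1.71 over all libraries, without any 1 of the 4 (-1.78 to -1.66). DESeq2 did not call Slc5a1, Slc2a5 or Slc5a4a, although both labelled libraries lay below both WT libraries in each.

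Of the amino acid and peptide carriers, Slc6a20a was at 63 and 63 CPM against 414 and 419 CPM in WT E18 (-2.73 ± 0.56, edgeR adjusted p = 0.0011). Slc15a1 was at 235 and 219 CPM against 776 and 762 CPM (-1.76 ± 0.43, edgeR adjusted p = 0.00368), Slc6a19 at 370.1 and 349 CPM against 1425 and 1371 CPM (-1.96 ± 0.41) and Slc7a8 at 189 and 195 CPM against 772 and 791 CPM (-2.03 ± 0.49). Slc16a10 fell too, at -1.88, and Slc7a7 at -1.59. In all 6 genes both labelled libraries lay below both WT libraries. Slc7a9 did not pass the test, at 330.5 and 324 CPM against 437 and 439.8 CPM. DESeq2 did not call Slc15a1 or Slc6a19, and the call of Slc7a7 was lost without the labelled replicate 2 (-1.59).

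Growth carriers moved in both directions. Slc2a1 was at 64.6 and 59.7 CPM against 18.4 and 16.2 CPM in WT E18 (1.85 ± 0.17, edgeR adjusted p = 1.88e-07), and Slc7a5 at 32.6 and 28.6 CPM against 9.04 and 10.8 CPM (1.62 ± 0.28, edgeR adjusted p = 0.000179). Both labelled libraries lay above both WT ones in each gene, and nearer to the WT E16 level of Slc7a5 and Slc2a1 than WT E18 was. Slc16a3 fell to 13 and 12.8 CPM from 102 and 100.1 CPM (-2.97 ± 0.26, edgeR adjusted p = 1e-07), Slc2a3 to 0.465 and 0.306 CPM from 11.2 and 9.5 CPM (-4.76 ± 0.35) and Slc6a8 fell too, at -1.16, the last call being lost without the labelled replicate 2 (-1.16). Among the other members, Slc5a12 was at 2.79 and 2.83 CPM against 601 and 605 CPM (-7.74 ± 0.64, edgeR adjusted p = 6.75e-08), Slc5a6 at 19.1 and 17.5 CPM against 107 and 107 CPM (-2.55 ± 0.34) and Slc16a9 at 0 and 0.115 CPM against 28.2 and 27.7 CPM. Slc16a12 was higher, at 28 and 31 CPM against 1.73 and 2.42 CPM (3.81 ± 0.51, edgeR adjusted p = 1.21e-05), and so was Slc15a2, at 18.1 and 20.1 CPM against 2.96 and 2.58 CPM (2.79 ± 0.41). Without the labelled replicate 2 the counts were 6 higher and 17 lower.

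In adult ileum villi, 55 members were tested and 10 were called higher and 19 lower, against 8.41% and 12% of all 12444 genes. Of the absorptive carriers, 4 of 7 for sugars and 4 of 7 for amino acids and peptides were called lower and none higher, and of the 8 growth carriers tested 4 were called higher and none lower. The adult libraries labelled knockout had higher Cdx2 counts than WT. Without the labelled replicate 1 the number called was 14 in all, and without 1 of the other 3 libraries it was up to 26.

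Slc5a4a was at 0.0414 and 0.143 CPM in the adult libraries labelled knockout and 124 and 58.6 CPM in WT, with 3 counts in all in the former, a ratio of 0.000878 (95% counting interval 0.000181 to 0.00257). Slc5a4b was at 0.124 and 0.571 CPM against 255 and 98.7 CPM (-9.18 ± 0.85, edgeR adjusted p = 0.00407). In both genes all labelled libraries lay far below WT, and WT replicate 1 lay well above WT replicate 2. Slc5a1 was at 1741 and 2259 CPM against 5068 and 4357 CPM (-1.24 ± 0.22, edgeR adjusted p = 0.0168), with no overlap, but the call was lost without WT replicate 1 or the labelled replicate 1 (-1.12 to -1.04) and with all 31 libraries in a single fit. Slc2a7 was lower too (-1.85 ± 0.36), a call lost without either labelled library (-2.06 to -1.66). Slc2a2, at 213 and 244 CPM against 227 and 72.9 CPM, and Slc2a5, at 24.9 and 237 CPM against 243 and 229 CPM, were not called, and in both the groups overlapped.

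Slc15a1 was at 306 and 344 CPM against 1387 and 1009 CPM in WT, both labelled libraries lying below both WT ones (-1.88 ± 0.21, edgeR adjusted p = 0.00572). Slc16a10 was at 32 and 29.9 CPM against 372 and 188 CPM (-3.18 ± 0.36, edgeR adjusted p = 0.00603), Slc6a20a at 25.5 and 26.8 CPM against 248 and 177 CPM (-3.02 ± 0.21) and Slc7a8 at 60 and 62.6 CPM against 409.9 and 272 CPM (-2.47 ± 0.23), each with no overlap. The call of Slc16a10 was lost without the labelled replicate 1 (-3.20). Slc7a9 was at 557 and 513 CPM against 565 and 551 CPM and Slc6a19 at 854 and 635 CPM against 1637 and 1309.9 CPM, neither called, the groups overlapping for Slc7a9 and not for Slc6a19. Of the others, Slc5a8, a sodium-coupled carrier of butyrate and lactate, was at 0.166 and 0.642 CPM against 424 and 415 CPM (-10.19 ± 0.47, edgeR adjusted p = 0.00107), and Slc5a6 at 2.82 and 4 CPM against 105 and 84.1 CPM (-4.82 ± 0.25).

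The growth carriers called higher in the adult libraries labelled knockout were Slc2a1, at 112 and 112 CPM against 16.6 and 44.4 CPM (1.87 ± 0.47, edgeR adjusted p = 0.0377), Slc7a5, at 21.3 and 27.6 CPM against 7.57 and 6.58 CPM (1.79 ± 0.20), Slc7a11, at 5.13 and 4.64 CPM against 1 and 0.68 CPM (2.54 ± 0.34), and Slc6a6, at 1422 and 908 CPM against 461 and 370.3 CPM (1.49 ± 0.27). In each, both labelled libraries lay above both WT ones. The call of Slc2a1 was lost without either labelled library (1.88 to 1.90), that of Slc7a11 without the labelled replicate 1 (2.48) and that of Slc6a6 without 3 of the 4 libraries (1.15 to 1.65). Slc16a6 had the largest rise of all members tested, from 8.94 and 7.31 CPM to 134 and 123 CPM (3.99 ± 0.16, edgeR adjusted p = 0.000886). Slc6a9, a glycine carrier, was at 160.5 and 167 CPM against 24.9 and 15.5 CPM (3.02 ± 0.26).

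**Figure D4:**
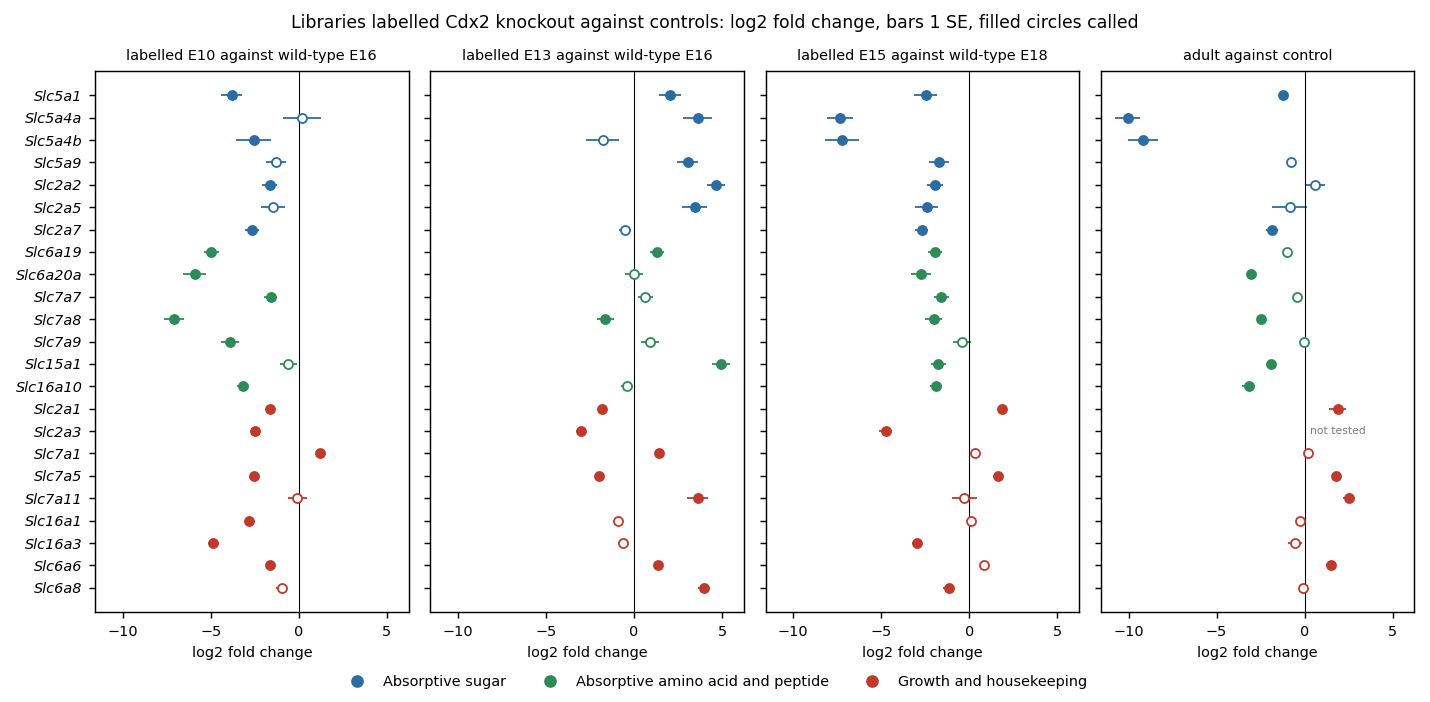
Fitted log2 fold change, with bars of 1 standard error, of 14 absorptive and 9 growth and housekeeping carriers in each comparison of libraries labelled deleted with WT; filled circles passed the test. Slc5a4a and Slc5a4b lie furthest below 0 among the sugar carriers at E15 (-7.35 and -7.25) and in the adult.

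Further members outside the role lists were among those that changed most in 1 or more comparisons. Slc16a5, a monocarboxylate carrier, was at 0 counts in both E12 small intestine libraries and at 2.31 and 2.56 CPM at E14, at least 24-fold higher. At E16 it was at 9.56 and 6.5 CPM in small intestine, 12 and 8.74 CPM in hindstomach and 0 counts in both forestomach libraries, which were at least 17.3-fold lower than small intestine and at least 22.4-fold lower than hindstomach. Slc7a2, a carrier of basic amino acids, was higher in E14 forestomach, at 37.9 and 40.7 CPM, than in small intestine, at 3.82 and 3.12 CPM, with no overlap (3.49 ± 0.43). Slc16a12 fell in forestomach from 18.7 and 12.8 CPM at E14 to 0 and 1.84 CPM at E16 (-4.09 ± 0.60). Slc7a14, related to the carriers of basic amino acids, had 2 counts in all in the libraries labelled deleted at E10, against 4.63 and 5.51 CPM in WT E16, a ratio of 0.0113 (95% counting interval 0.00136 to 0.0414). Slc16a7, a carrier of pyruvate and lactate, was higher with the label E15, at 0.879 and 1.38 CPM against 0.164 and 0.0549 CPM, but the call was lost without any 1 of the 4 libraries, at 2.75 to 4.25. In adults Slc16a12 was at 21.4 and 5.99 CPM in the libraries labelled knockout and 1.25 and 1.64 CPM in WT (3.25 ± 0.70), a call lost without 3 of the 4 libraries, at 2.06 to 3.46.

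The comparisons for E15 and for the adult share no library. Of 28 members called lower at E15, 25 were tested in the adult and 14 were called lower there too, 56% of those 25 and 73.7% of the 19 called lower in the adult, against 58.6% and 50.7% for all 12408 genes tested in both. Of 8 called higher at E15 and 10 called higher in the adult, 5 were shared, namely Slc2a1, Slc7a5, Slc16a12, Slc6a9 and Slc7a2, which is 62.5% and 50% of them, against 33.7% and 39.8% for all genes. No member was called in opposite directions in these 2 comparisons; of all genes, 30 were lower at E15 and higher in the adult and 13 the reverse. The comparisons for E10 and E15 share no library either: 16 members were lower in both, 47.1% of 34 and 57.1% of 28, against 17.2% and 48.8% for all genes. Lower at E10 and higher at E15 were 4 members, namely Slc2a1, Slc7a4, Slc7a5 and Slc16a12, which is 11.8% of 34 and 50% of 8, against 6.96% and 24.6% for all genes. The difference between the effects at E15 and E10 was itself tested and called for 23 members in favour of a higher value at E15 and 9 in favour of a lower one, against 21.4% and 19.7% of all genes. Slc2a1 had a log2 fold change of -1.61 at E10 and 1.85 at E15, a difference of 3.46 ± 0.23 (edgeR, adjusted p = 6.14e-10). For Slc7a8 the effects were -7.08 and -2.03, a difference of 5.05 ± 0.74 (edgeR, adjusted p = 1.06e-05).

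Proteins that work beside these carriers were followed as lists. Slc3a1, the partner that Slc7a9 needs at the brush border, was at 143 and 135 CPM in WT E16 and 3.07, 2.01 and 3.21 CPM in the libraries labelled deleted at E10, all far below WT (-5.66 ± 0.44, edgeR adjusted p = 2.3e-09), and rose from E16 to 366 and 375 CPM at E18 (1.42 ± 0.40). Slc3a2, the partner of Slc7a5, Slc7a7, Slc7a8 and Slc7a11, was at 296 and 275 CPM in the libraries labelled deleted at E15 and 803 and 831 CPM in WT E18 (-1.52 ± 0.14), although Slc7a5 rose there. For these lists, the shares of all genes called higher and lower were 20.1% and 22.1% from E16 to E18, 23.9% and 27.6% with the label E10, 18.7% and 20.8% with E13, 7.79% and 9.7% with E15 and 8.41% and 12% in the adult. Of the 7 partner and scaffold proteins tested, 4 were lower and 1 higher with the label E10, and 4 were lower and none higher with the label E15.

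The hydrolases of the brush border, which release the sugars, peptides and amino acids that these carriers take up, were counted beside them. Of 11 listed, 10 rose from E16 to E18 and none fell, 10 fell and none rose in the libraries labelled deleted at E15, and 8 fell and none rose in the adult. Lactase, Lct, was at 4919 and 4921 CPM in WT E18 and 25.7 and 28.8 CPM in the libraries labelled deleted at E15 (-7.49 ± 0.39, edgeR adjusted p = 2.14e-10). Sucrase-isomaltase, Sis, was at 9169 and 9281 CPM and 105 and 121 CPM (-6.35 ± 1.21). With the label E13 Lct was lower, at 6.32 and 7.05 CPM against 483 and 423 CPM in WT E16 (-6.08 ± 0.37), where 5 of the 11 rose and 4 fell and 5 of the 7 absorptive sugar carriers were higher. Of the 5 genes of the sodium and proton gradient, 3 fell with the label E10 and 4 rose with the label E13. Of 10 other amino acid carriers, 5 fell and none rose with the label E10, and 2 rose and 2 fell with the label E15. Of 6 genes of the amino acid response, 4 rose and 1 fell with the label E10, and 1 rose and 1 fell with the label E15 and in the adult.

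Across the 13 embryonic groups, WT E18 small intestine had the highest mean level of 28 of the 75 members tested, 37.3%, against 14.9% of all 17239 genes. The libraries labelled deleted at E10 had the highest level of 3, which is 4%, against 18.3% of all genes. E16 forestomach with 10, E16 hindstomach with 7 and the label E13 with 6 members held 13.3%, 9.33% and 8%, against 12.6%, 8.62% and 7.66%. The member whose group means ranked most like those of Slc5a1 was Slc7a9, with a Spearman correlation of 0.977 over the 13 groups, followed by Slc7a15 (0.93), Slc6a7 (0.922), Slc6a19os (0.91) and Slc6a20a (0.901). The lowest was that of Slc6a17 (-0.924). These are descriptions over group means of libraries that differ in depth and preparation. Slc6a19os overlaps Slc6a19, and without a stated strand setting reads from where they overlap cannot be told apart. Their counts did not always move together. From WT E16 to E18 small intestine the mean of Slc6a19os went from 9.74 to 0.823 CPM and that of Slc6a19 from 101.6 to 1398 CPM.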

How the data were processed

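RNA-seq libraries of mouse gut epithelium were used; the ATAC-seq and ChIP-seq samples of the study were not analysed here. Per the labels' protocols, embryonic libraries were made with the SMARTer v4 kit and adult ones with TruSeq v2, read as 75 bp single ends. The values are whole-number counts per gene symbol as the authors deposited them, with no normalization. The submitters' processing notes name STAR 2.5.3a, HTSeq, Bowtie2, MACS2 and the build mm9, without saying which made the counts. The strand setting and annotation are not given in the sources used here, and no gene length was used.

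Each adult column of the deposited counts has 2 blank cells, below which values are shifted. These were closed up; all 81 members lie above the first blank, so none of their values moved. The table has 2 columns that match no sample, which were not used.

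The 27 embryonic libraries (13 groups) were fitted together in edgeR 4.0.16 (R 4.3.3) by TMM, filterByExpr at a minimum count of 10 and the quasi-likelihood test, and the 4 adult libraries apart. Adjusted p-values are Benjamini-Hochberg over all 17239 or 12444 genes tested. CPM use the TMM-adjusted library size, set separately for embryonic and adult libraries. A fold against a group at 0 was computed against 3 counts in the shallowest library of that group. Intervals of ratios are exact, cover counting error only and use a level of 95%.

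Tested on simulated counts with a log2 change of 2, the embryonic fit recovered 156 of 200 changed genes in the comparison of label E10 with WT E16, with 3 false calls among 16934, and the adult fit 185 of 200, with 10 among 12067. The changed genes were drawn only from genes with high mean counts, so recovery of members with low counts was not measured.

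The members, lists and tests were chosen with earlier results of these data known. Named genes were those of 4 role lists, 29 in all, plus for each comparison in each direction the 2 called members that changed most, among those whose average log2 CPM was 2 or more and whose groups lay apart; Slc5a7, Slc6a15, Slc6a9 and other members outside this rule were chosen after their values were seen. Replicate numbers did not pair the samples: over 105 pairs of groups, same-numbered deviations correlated at -0.128 to 0.12, with 1 above 0.1. Alternatives tried were DESeq2 1.42.0, DESeq2's size factors in edgeR, no filter, no fold minimum, thinned counts, a replicate block, fits of the compared groups alone, all 31 libraries in a single fit, and leaving out each library. Some genes that the rule or the lists name are not reported here.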

Additional observations from a re-analysis of the deposited data

Results flagged for a closer look

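The effect of the label E15 against WT E18 and that of the label E10 against WT E16 differed, by edgeR's test of the difference itself, for 20 of the named carriers. All differences are given on the log2 scale as the E15 effect minus the E10 effect.

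For 5 of the 7 absorptive amino acid and peptide carriers the effect was less negative at E15, while Slc7a7 (0.003) and Slc15a1 (-1.17) were not called. The difference was 5.05 for Slc7a8, 3.48 for Slc7a9 (effects of -3.90 and -0.42), 3.18 for Slc6a20a, 3.01 for Slc6a19 and 1.30 for Slc16a10. Of the 7 absorptive sugar carriers, Slc5a4a and Slc5a4b had negative differences, at -7.51 and -4.69, and the other 5 were not called, with values from -0.97 to 1.34; the E10 effects were 0.16, which did not pass the test, and -2.56. In WT E16 Slc5a4a was at 0 and 0.71 CPM, so no fall with the label E10 could be measured for it. Both differences lost the call without the library labelled deleted at E10 replicate 1, at -4.68 and -2.59. The call of Slc16a10 was lost without any of 7 of the 9 libraries, at 1.07 to 1.33.

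Among growth carriers the differences were 4.14 for Slc7a5, 3.46 for Slc2a1, 2.93 for Slc16a1, 2.47 for Slc6a6, 1.88 for Slc16a3 and -2.28 for Slc2a3. Slc16a1 had an effect of -2.85 at E10 and 0.08, which did not pass the test, at E15.

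Of the other carriers, Slc16a12 differed by 9.61, Slc7a14 by 5.80, Slc6a4 by 3.02 and Slc15a2 by 1.49, while Slc16a9 differed by -12.75, Slc5a12 by -10.96 and Slc5a5 by -5.79. The fitted value of Slc16a9 rests on counts of 0 and 2 in WT E16 and 0 and 3 with the label E15, and its effect at E10, 4.1, did not pass the test. That of Slc5a5 rests on counts of 2 and 1 in WT E18, and that of Slc7a14 on 2 counts in all with the label E10. Slc5a12 had a mean of 0.354 CPM in WT E16. The size of the differences of Slc16a9, Slc5a5, Slc7a14 and Slc5a12 is therefore uncertain. The call of Slc15a2 was lost without any of 4 libraries, at 1.36 to 1.59, and that of Slc5a5 without WT E18 replicate 1, at -4.98. The groups differ in Cre driver, treatment, stage and cell preparation as well as in the time of deletion, and these cannot be told apart.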

How the results depend on the processing

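Over 16 counts of called members, most alternatives stayed within 1.5 times the value reported. The exceptions were E14 hindstomach against small intestine (12 called), with 20 in a fit of those groups alone, E16 forestomach against hindstomach (11 called), with 18 each with no fold minimum, with thinned counts and in a fit of those groups alone, and small intestine E14 against E12 (16 called), with 0 in a fit of those groups alone. With 1 library left out, the counts were 5 to 7 for E14 hindstomach against small intestine, 12 to 32 for small intestine E14 against E12, 13 to 21 for hindstomach E16 against E14, 23 to 29 for the label E15 and 14 to 26 in the adult. The rise of Slc5a4a from E14 to E16 reversed to 0 without WT E16 replicate 2, where all its counts lie, and was 7.12 without replicate 1. Of 287 called gene values, 27 lost the call with DESeq2, 5 with its size factors, 6 with thinned counts, 1 with no filter, 14 of 266 in fits of the compared groups alone, 1 of 18 with all 31 libraries in a single fit, and 65 without at least 1 library. The cause was not tested. DESeq2's size factors moved the median of all genes by over 0.1 on the log2 scale in 7 of 16 results, by 0.257 for forestomach E16 against E14.

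With the replicate number as a block, the counts were 39 with the label E10, 43 with E13, 35 with E15 and 28 in the adult, and of the 287 gene values followed the calls of 2 were lost, Slc5a4b and Slc6a14 with the label E10. The numbers did not pair the samples. Depth limits genes near 3 counts per library, and with 2 libraries in most groups the spread rests on few samples.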
